A study of Mus musculus with 4 samples.

Results

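The vascular endothelial growth factors (VEGFs) and angiopoietins, with their receptors, were described here as 10 genes of the 32285 measured, matched by symbol: the ligand genes Vegfa, Pgf, Vegfc, Vegfd and Angpt1, and the receptor genes Kdr, Flt1, Flt4, Nrp1 and Tek. Their UMIs (unique molecular identifiers, each standing for 1 captured RNA molecule) were counted by single-cell RNA sequencing in mononuclear cells of mouse skeletal muscle. There were 4 libraries, 1 each of mdx5cv quadriceps, WT quadriceps, mdx5cv diaphragm and WT diaphragm, all from mice aged 14 weeks. The mdx5cv mouse carries a mutation of the dystrophin gene and is a model of Duchenne muscular dystrophy, WT mice are wild type, and the labels name no treatment and no number of animals. With 1 library a group there is no replicate, so no p-value was computed, and every interval below is a 95% interval that covers counting error only.

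Vegfa encodes the main mitogen and survival factor of blood vessel endothelium, which acts through the receptor tyrosine kinase Kdr (VEGFR2). Flt1 (VEGFR1) binds Vegfa and placental growth factor (Pgf) and, in its soluble form, holds Vegfa away from Kdr. Vegfc and Vegfd are the lymphatic ligands and act through Flt4 (VEGFR3), which in adult tissue is mainly a receptor of lymphatic endothelium. Nrp1 is a co-receptor shared by VEGF and class 3 semaphorin signals, and Angpt1 is the agonist of the Tek receptor (Tie2), which keeps vessels quiescent. In skeletal muscle these signals maintain the capillary bed around the fibres. Tags at the 3' end of transcripts cannot tell the Vegfa splice forms apart, nor soluble Flt1 from the membrane form.

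Positions are 1-based and from GENCODE M21 on GRCm38. Vegfa (ENSMUSG00000023951) lies on chromosome 17, 46016993 to 46032369, minus strand. Pgf (ENSMUSG00000004791) lies on chromosome 12, 85166635 to 85177790, minus strand. Vegfc (ENSMUSG00000031520) is on chromosome 8, 54077606 to 54187096, plus strand, and Vegfd (ENSMUSG00000031380) is on chromosome X, 164373378 to 164402650, plus strand. Angpt1 (ENSMUSG00000022309) is on chromosome 15, 42424723 to 42676977, minus strand. Among the receptors, Kdr (ENSMUSG00000062960) and Flt1 (ENSMUSG00000029648) share the minus strand of chromosome 5, at 75932827 to 75978458 and 147561604 to 147726011. Flt4 (ENSMUSG00000020357) is on chromosome 11, 49609263 to 49652739, Nrp1 (ENSMUSG00000025810) on chromosome 8, 128358604 to 128503363, and Tek (ENSMUSG00000006386) on chromosome 4, 94739289 to 94874976, all on the plus strand. Each interval covers the whole gene, exons and introns together.

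Promoters are shown for 4 members chosen by their values: Vegfa and Pgf were lower together in mdx5cv stromal cells, and Kdr and Flt1 were the receptors with the highest endothelial levels. Each is the 250 bases before the RefSeq start site on GRCm38.p6, written 5' to 3' on the gene's own strand. Capitals mark matches on either strand to the hypoxia-response cores ACGTG and GCGTG, the GC box GGGCGG and the TATA box TATAAA. The windows are chr17:46032378-46032627 (Vegfa), chr12:85177314-85177563 (Pgf), chr5:75978456-75978705 (Kdr) and chr5:147726012-147726261 (Flt1), all on the minus strand. The Pgf window lies wholly inside the GENCODE interval of Pgf given above.
Vegfa: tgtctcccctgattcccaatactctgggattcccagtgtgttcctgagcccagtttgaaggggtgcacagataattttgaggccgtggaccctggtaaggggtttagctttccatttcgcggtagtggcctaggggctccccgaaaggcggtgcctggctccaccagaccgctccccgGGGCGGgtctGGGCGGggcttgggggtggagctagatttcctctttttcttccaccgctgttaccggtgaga
Pgf: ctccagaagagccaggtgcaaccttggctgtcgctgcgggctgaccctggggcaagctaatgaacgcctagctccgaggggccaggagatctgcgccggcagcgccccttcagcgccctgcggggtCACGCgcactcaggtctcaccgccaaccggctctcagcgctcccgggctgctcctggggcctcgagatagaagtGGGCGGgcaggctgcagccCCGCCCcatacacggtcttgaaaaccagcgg
Kdr: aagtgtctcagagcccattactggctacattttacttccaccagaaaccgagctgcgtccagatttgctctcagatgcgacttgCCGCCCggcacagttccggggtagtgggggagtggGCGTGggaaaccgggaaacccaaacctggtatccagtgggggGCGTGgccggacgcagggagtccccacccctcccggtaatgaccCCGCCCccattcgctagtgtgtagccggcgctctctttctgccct
Flt1: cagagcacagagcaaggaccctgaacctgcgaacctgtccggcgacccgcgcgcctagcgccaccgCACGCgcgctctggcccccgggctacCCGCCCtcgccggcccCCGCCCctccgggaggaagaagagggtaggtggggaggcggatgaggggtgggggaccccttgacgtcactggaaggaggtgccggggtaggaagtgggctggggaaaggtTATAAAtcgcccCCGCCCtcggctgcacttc
Vegfa held 2 GC boxes, with first bases at -72 and -62 from the start site, and 0 matches to either hypoxia core in this window. Pgf held 2 GC boxes, at -50 and -31, and 1 GCGTG core at -124. Kdr held 2 GC boxes and 2 GCGTG cores, at -131 and -89, and Flt1 held 3 GC boxes, 1 GCGTG core at -184 and a TATA box at -31. Of 32851 windows of this length, 32.7% held the GC box, 28.2% GCGTG, 16.6% ACGTG, 38.6% either core and 12.4% the TATA box. The windows were rich in G and C, at 59.2% for Vegfa, 68.4% for Pgf, 61.6% for Kdr and 70.4% for Flt1, against a median of 52.4% over the windows of all genes. A match describes these letters and is not a shown binding site. Whether these sequences bear on the levels was not tested.

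Cells were barcodes with at least 1000 UMIs, 500 genes and at most 15% mitochondrial UMIs, which gave 8334 cells of mdx5cv quadriceps, 4911 of WT quadriceps, 7402 of mdx5cv diaphragm and 7516 of WT diaphragm. Their median depth was lowest in WT quadriceps, at 2055 UMIs, and between 4355.5 and 5328.5 UMIs in the other libraries. A cell entered 1 of 13 gates when it held at least 3 markers of that cell type and little of any other lineage, which placed 82.9% to 94.3% of each library's cells. Between 2.41% and 9.04% of cells carried markers of more than 1 lineage (called mixed here) and were left out, which also served as the treatment of doublets. Every gate had 2 to 6 of its own markers, and 0 of another gate, among its 10 leading genes. The gating rule itself favours this, so it is not an independent check of the gates. No member was a marker. The gates differed widely in size. Endothelial cells, the vessel lining, numbered 408 in mdx5cv quadriceps, 2519 in WT quadriceps, 355 in mdx5cv diaphragm and 75 in WT diaphragm. Stromal cells, the Pdgfra-positive mesenchymal cells of muscle, numbered 1256, 851, 2825 and 6184 in the same order, and macrophages 3603, 213, 1545 and 155. Only 78 barcodes occurred in more than 1 library.

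**Figure D1:**
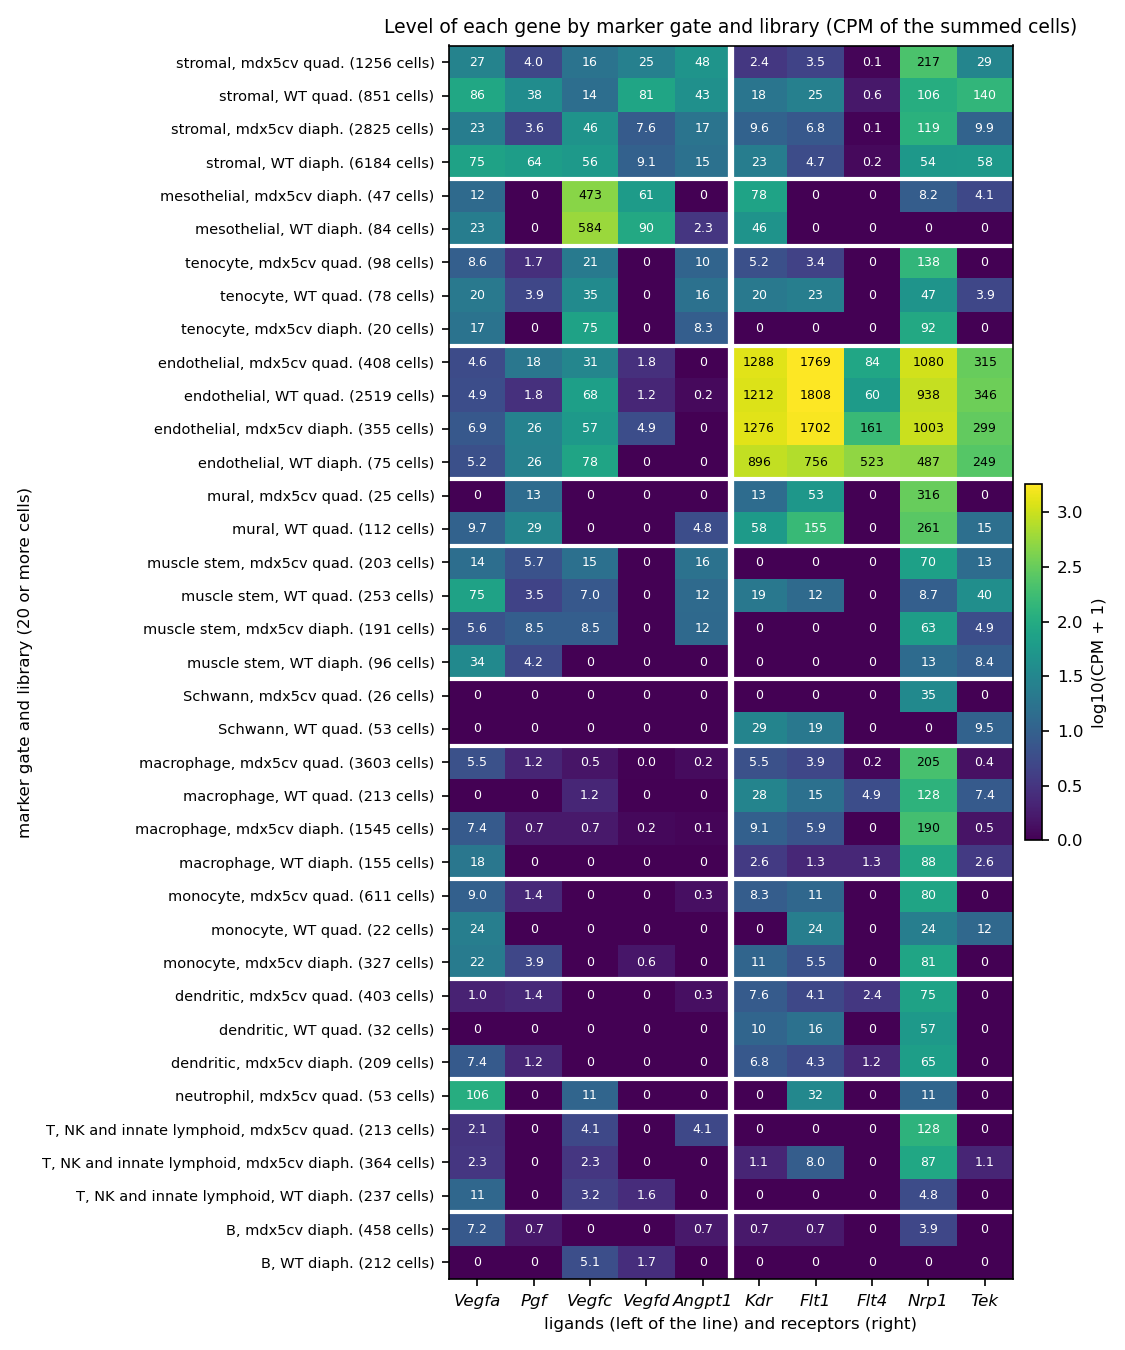
Levels of the 5 ligand genes (left) and 5 receptor genes (right), as CPM of the UMIs summed over the cells of a gate (rows, with cell numbers; gates with 20 or more cells). Colour is log10(CPM + 1) and the printed number is the CPM. Receptor levels peak in the endothelial rows, whereas among the rows of WT muscle Vegfa, Pgf and Angpt1 are highest in stromal rows, and Vegfd is highest in the stromal row of quadriceps and the mesothelial row of diaphragm.

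Levels are given as CPM, the UMIs of a gene per 1000000 UMIs summed over all genes and the cells of a gate, and gates with at least 20 cells were put in order. Kdr, Flt1, Flt4, Nrp1 and Tek were all at their highest in endothelial cells of every library, with intervals clear of the next gate each time. Endothelial cells held almost no Vegfa, at 4.62 CPM in mdx5cv quadriceps, 4.92 in WT quadriceps, 6.87 in mdx5cv diaphragm and 5.18 in WT diaphragm, and 1 Angpt1 UMI over all 4 libraries. Stromal cells led for Angpt1 in every library and for Vegfd in both quadriceps libraries. The Angpt1 interval overlapped that of the next gate in WT quadriceps (tenocytes) and mdx5cv diaphragm (muscle stem cells). Gates further down with wide intervals could overlap too, and not all such overlaps are listed here or below. Examples for Angpt1 are 20 tenocytes of mdx5cv diaphragm (0.211 to 46.4 CPM) and 25 mural cells of mdx5cv quadriceps (0 to 48.6 CPM).

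For Vegfa the order of the gates differed between libraries. In mdx5cv quadriceps 53 neutrophils came first, at 106 CPM (50.7 to 194), on 10 UMIs of which 8 lay in 1 cell, and stromal cells followed at 27.5 CPM (24.0 to 31.3). In WT quadriceps stromal cells and muscle stem cells stood at the top, at 85.9 CPM (76.0 to 96.7) and 75.2 CPM (54.5 to 101), which overlap. In mdx5cv diaphragm stromal cells and monocytes overlapped, at 23.0 CPM (20.7 to 25.4) and 21.6 CPM (15.4 to 29.5). In WT diaphragm stromal cells led alone, at 74.8 CPM (71.7 to 77.9), above muscle stem cells at 33.8 CPM (14.6 to 66.6).

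Macrophages carried Vegfa at a low level but in mdx5cv quadriceps were numerous. Macrophages carried 141 Vegfa UMIs (5.52 CPM) in mdx5cv quadriceps, against 0 UMIs in WT quadriceps, where an upper limit of 4.53 CPM applies. In diaphragm they carried 78 UMIs (7.36 CPM) in mdx5cv and 14 UMIs (18.4 CPM) in WT. The mdx5cv macrophage intervals overlapped those of endothelial cells, at 4.62 CPM in quadriceps and 6.87 CPM in diaphragm. In mdx5cv diaphragm the macrophage interval also overlapped that of B cells, at 7.20 CPM. Shares of UMIs are taken over all cells of a library, those mixed or in no gate included, so the gates do not hold every UMI. Such cells were 9.04% and 8.08% of mdx5cv quadriceps cells, and 6.35% and 8.82% of WT quadriceps cells. Macrophages made up 43.2% of mdx5cv quadriceps cells and 4.34% of WT quadriceps cells, and their share of all Vegfa UMIs was 24.2% in mdx5cv and 0% in WT. In diaphragm the macrophage share was 12.0% in mdx5cv and 0.592% in WT. Stromal cells held 39.1% of Vegfa UMIs in mdx5cv quadriceps and 67.8% in WT quadriceps, and 58.3% in mdx5cv diaphragm and 94.5% in WT diaphragm. In mdx5cv quadriceps the macrophage UMIs sat in 58 of 3603 cells, with up to 18 UMIs in 1 cell.

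**Figure D2:**
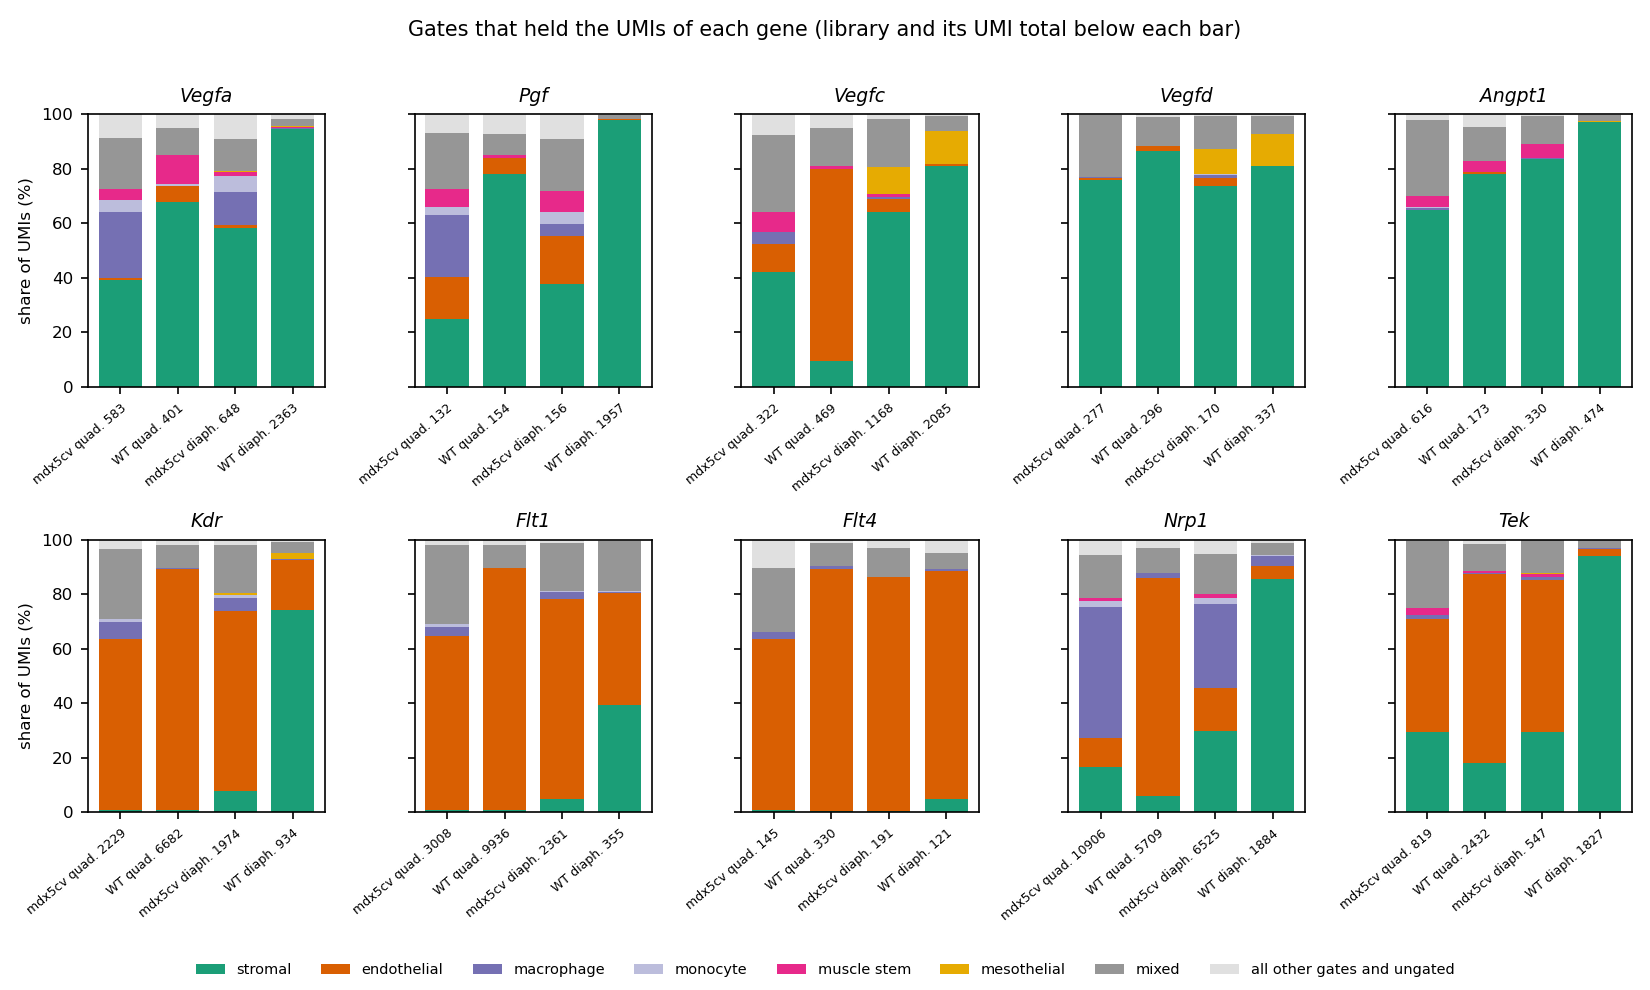
Share of each gene's UMIs (vertical axis, %) held by each gate in each library, with the library's UMI total of that gene below the bar. The total includes cells that were mixed or in no gate. For Vegfa the stromal share is 39.1% in mdx5cv quadriceps and 67.8% in WT quadriceps, and for Nrp1 the macrophage share is 48.1% and 1.82%.

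In mural cells, the pericytes and smooth muscle around vessels, few ligand UMIs were counted, but few cells were captured. There were 25 mural cells in mdx5cv quadriceps, 112 in WT quadriceps, 11 in mdx5cv diaphragm and 8 in WT diaphragm. They held 0 Vegfc and 0 Vegfd UMIs in all 4 libraries, 2 Angpt1 UMIs and 3 Vegfa UMIs in all. Pgf was the exception, with 1 UMI in mdx5cv quadriceps, 6 in WT quadriceps, 4 in mdx5cv diaphragm and 1 in WT diaphragm. At 29.0 CPM (10.7 to 63.2) the WT quadriceps mural level of Pgf overlapped the stromal level of 37.9 CPM (31.4 to 45.3). With so few cells, low mural levels of the ligands are not shown. A count of 0 in mdx5cv quadriceps mural cells has an upper limit of 48.6 CPM. Stromal cells of that library had 27.5 CPM of Vegfa and 48.1 CPM of Angpt1. By their markers, the mural cells of WT diaphragm were 8 smooth muscle cells and 0 pericytes.

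The lymphatic ligand Vegfc had the most varied sources. Mesothelial cells, the lining of the diaphragm's surfaces, held 473 CPM (391 to 568) in mdx5cv diaphragm and 584 CPM (515 to 661) in WT diaphragm, above every other gate in both. In mdx5cv diaphragm, tenocytes (tendon fibroblasts) followed at 74.9 CPM (34.2 to 142, 20 cells), endothelial cells at 56.9 CPM (43.2 to 73.6) and stromal cells at 45.5 CPM (42.3 to 48.9), with overlapping intervals. In WT diaphragm, endothelial cells followed at 77.7 CPM (43.5 to 128) and stromal cells at 56.5 CPM (53.8 to 59.2), which also overlap. Endothelial cells had the highest level in both quadriceps libraries, with intervals that overlapped those of tenocytes. In quadriceps, endothelial cells held 10.2% of all Vegfc UMIs in mdx5cv and 70.1% in WT. The stromal share of Vegfc was 42.2% in mdx5cv quadriceps and 9.59% in WT quadriceps, and 64.0% in mdx5cv diaphragm and 80.9% in WT diaphragm. Mesothelial cells, 47 and 84 cells in mdx5cv and WT diaphragm, held 9.93% of Vegfc UMIs in mdx5cv and 12.1% in WT. Vegfd in mesothelial cells was 61.2 CPM (34.2 to 101) in mdx5cv and 90.1 CPM (64.1 to 123) in WT, again above stromal cells.

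The comparison of genotypes was made within each gate and muscle, as the ratio of CPM in mdx5cv over WT. A gene was called where the ratio was at least 1.5-fold in either direction with an interval that excludes 1. Sums over cells give each UMI equal weight and leave out variation between cells.

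In stromal cells the angiogenic ligands Vegfa and Pgf fell in mdx5cv muscle at both sites, while Angpt1 and Vegfc stayed inside the 1.5-fold limit. Vegfa was 27.5 CPM in mdx5cv quadriceps and 85.9 CPM in WT quadriceps, 3.12-fold lower (2.61 to 3.74). In diaphragm it was 23.0 CPM in mdx5cv and 74.8 CPM in WT, 3.25-fold lower (2.91 to 3.63). The mdx5cv and WT intervals did not overlap in either muscle, and the difference of the log2 ratios, diaphragm minus quadriceps, was -0.06 (-0.36 to 0.24). A Vegfa UMI was seen in 13.9% of mdx5cv and 21.9% of WT quadriceps stromal cells, and in 9.95% of mdx5cv and 25.1% of WT diaphragm stromal cells. With each cell thinned to 1000 UMIs these shares were 3.34%, 6.70%, 2.19% and 7.54%, with mdx5cv again below WT in each muscle. In lymphoid cells, set beside these as cells of low Vegfa, between 0% and 1.58% had a Vegfa UMI, at median depths of 1791.5 to 2563 UMIs.

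Pgf changed most. It was 3.98 CPM (2.74 to 5.59) in mdx5cv quadriceps stroma and 37.9 CPM (31.4 to 45.3) in WT, 9.52-fold lower (6.43 to 14.5). In diaphragm it was 3.59 CPM (2.73 to 4.63) in mdx5cv and 64.2 CPM (61.3 to 67.1) in WT, 17.9-fold lower (13.8 to 23.6). The fall was greater in diaphragm, with a difference of log2 ratios of -0.91 (-1.58 to -0.24). WT diaphragm stroma held 1916 of the 1957 Pgf UMIs of its library. In mdx5cv quadriceps, where only 132 Pgf UMIs were left in the library, stromal cells held 25.0% of them, macrophages 22.7% and endothelial cells 15.2%. The macrophage part was 30 UMIs in 13 cells, of which 17 lay in 1 cell.

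Vegfd differed between the muscles. In quadriceps stroma it was 25.3 CPM in mdx5cv and 80.8 CPM in WT, 3.19-fold lower (2.65 to 3.85). In diaphragm stroma it was 7.60 CPM in mdx5cv and 9.14 CPM in WT, a ratio of 0.832 (0.668 to 1.03) that was not called. The diaphragm minus quadriceps difference was 1.41 (1.01 to 1.81) on the log2 scale. Vegfd was also the ligand whose WT stromal levels stood furthest apart by muscle.

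Over the whole stroma Vegfc and Angpt1 were not called. Vegfc was 16.4 CPM in mdx5cv and 14.2 CPM in WT quadriceps, a ratio of 1.15 (0.818 to 1.66), and 45.5 CPM in mdx5cv and 56.5 CPM in WT diaphragm, a ratio of 0.806 (0.738 to 0.879). Angpt1 was 48.1 CPM in mdx5cv and 42.6 CPM in WT quadriceps, a ratio of 1.13 (0.926 to 1.38). In diaphragm it was 16.8 CPM in mdx5cv and 15.4 CPM in WT, a ratio of 1.09 (0.933 to 1.27). These intervals leave room for Angpt1 differences of up to 1.38-fold in quadriceps and 1.27-fold in diaphragm. Both Angpt1 levels of quadriceps lay above both of diaphragm.

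Of the 10 members, 1 was called higher and 6 lower in quadriceps stroma, where 13.1% of the 17792 genes tested were called higher and 11.4% lower. In diaphragm stroma 1 was called higher and 4 lower, beside 10.9% higher and 8.83% lower of 19874 genes. Genes tested had at least 1 UMI. With at least 10 UMIs, 17.5% of genes were called higher and 13.8% lower in quadriceps stroma, and 13.6% and 11.5% in diaphragm stroma. The members' median log2 ratio was -1.66 in quadriceps and -0.29 in diaphragm, against 0.06 and 0.07 over the genes with at least 10 UMIs. The members were picked with earlier results on stromal Vegfa and Pgf known.

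**Figure D3:**
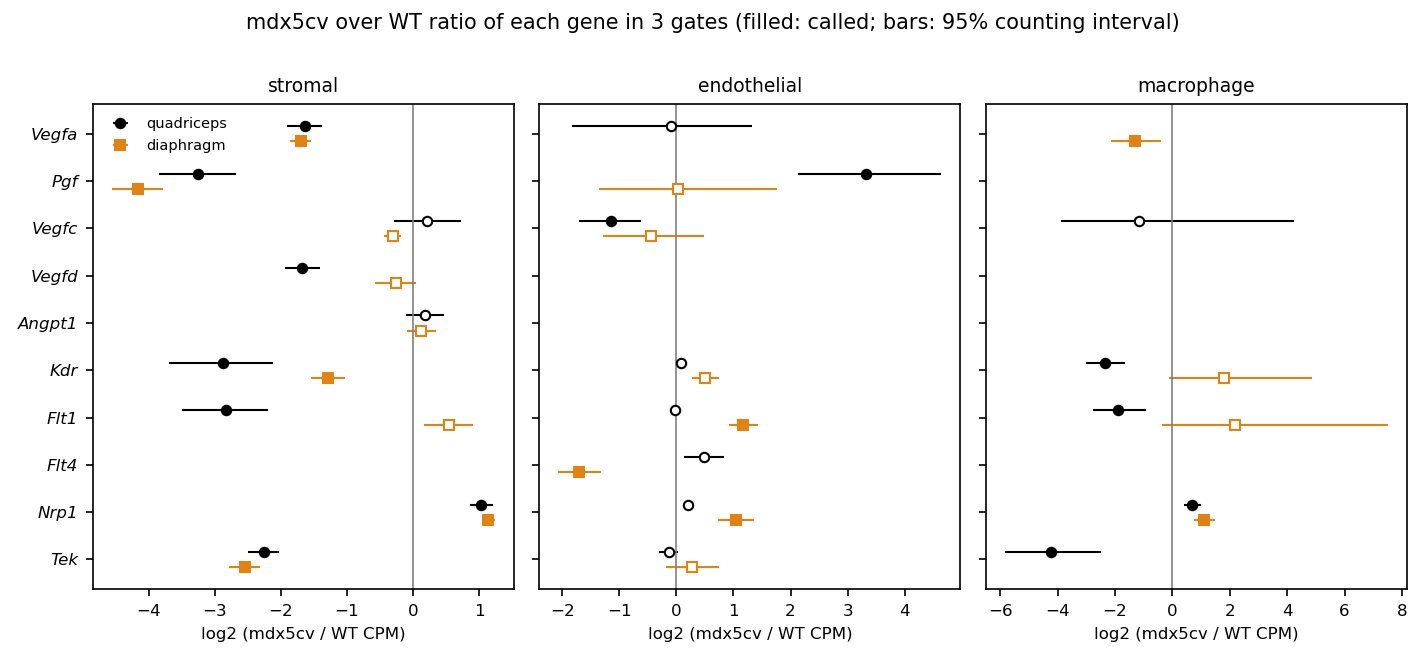
Log2 ratio of CPM in mdx5cv over WT (horizontal axis) for each gene in stromal, endothelial and macrophage gates, with 95% counting intervals, for quadriceps (circles) and diaphragm (squares). Filled symbols are called, ratios with fewer than 10 UMIs or with 0 UMIs on either side are not drawn, and Pgf, Vegfa and Tek lie left of 0 in both muscles in the stromal panel while Nrp1 lies right of it.

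The receptors were also detected in stroma. Nrp1, which is known in fibroblasts as well as vessels, rose in mdx5cv stroma of both muscles. It was 217 CPM in mdx5cv and 106 CPM in WT quadriceps, 2.04-fold higher (1.82 to 2.30), and 119 CPM in mdx5cv and 53.9 CPM in WT diaphragm, 2.21-fold higher (2.06 to 2.36). Thinned to equal depth, 19.2% of mdx5cv and 11.3% of WT quadriceps stromal cells had an Nrp1 UMI, and 11.6% of mdx5cv and 5.19% of WT diaphragm stromal cells.

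Tek, held to be a receptor of endothelium, was at 29.1 CPM in mdx5cv and 140 CPM in WT quadriceps stroma, 4.80-fold lower (4.10 to 5.64). In diaphragm stroma it was 9.86 CPM in mdx5cv and 57.6 CPM in WT, 5.84-fold lower (4.97 to 6.91). WT diaphragm stroma carried 1719 of that library's 1827 Tek UMIs, and 21.2% of its stromal cells had a Tek UMI. The ratio of Tek to Kdr CPM was 12.1, 7.89, 1.03 and 2.48 in stroma of mdx5cv quadriceps, WT quadriceps, mdx5cv diaphragm and WT diaphragm. In endothelial cells the same ratio was 0.245, 0.285, 0.235 and 0.278, and in barcodes of 10 to 100 UMIs, taken as free RNA, it was 0.409, 0.682, 0.50 and 1.92. Free RNA in the estimated amount would give 6.19 of the 140 CPM of Tek in WT quadriceps stroma and 2.28 of the 57.6 CPM in WT diaphragm stroma.

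Kdr and Flt1 in stroma were low, and in quadriceps they moved with endothelial markers. Kdr was 2.41 CPM in mdx5cv and 17.7 CPM in WT quadriceps stroma, 7.33-fold lower (4.33 to 12.9). Flt1 was 3.50 CPM in mdx5cv and 24.9 CPM in WT quadriceps stroma, 7.13-fold lower (4.61 to 11.3). The 8 endothelial markers summed to 20.7 CPM in mdx5cv quadriceps stroma (7 of 8 detected, Emcn at 0) and 96.9 CPM in WT quadriceps stroma (8 of 8 detected). Endothelial cells were 4.90% of mdx5cv and 51.3% of WT quadriceps cells, and free RNA in the estimated amount would give 9.08 CPM of Kdr and 17.1 CPM of Flt1 in WT quadriceps stroma. With free RNA subtracted, the log2 ratio of Kdr was -2.32 in place of -2.87 and that of Flt1 was -1.56 in place of -2.83, and both were still called. Endothelial RNA that reached stromal barcodes in other ways was not tested.

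In diaphragm the stromal Kdr values stood apart from that pattern. Kdr was 9.55 CPM in mdx5cv and 23.2 CPM in WT diaphragm stroma, 2.43-fold lower (2.04 to 2.91), while the endothelial markers summed to 11.8 and 14.4 CPM. The WT value rests on 693 UMIs in 555 cells, of which free RNA would give 1.19 CPM. Flt1 was 6.81 CPM in mdx5cv and 4.69 CPM in WT diaphragm stroma, a ratio of 1.45 (1.12 to 1.88) that was not called. It was called higher under 7 of 13 alternatives, among them the parenchymal state of the stroma, at 1.80-fold (1.22 to 2.63). The ratio of Flt1 to Kdr in WT diaphragm stroma was 0.202, against 0.844 in its endothelial cells and 1.35 in its free RNA. Flt4 was at 6 UMIs or fewer in the stroma of each library.

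The make-up of the stroma differed between genotypes, so the same ratios were taken within 3 states. A progenitor state was marked by Dpp4, Pi16 and related genes, a parenchymal state by Hsd11b1, Gfra1, Mme, Smoc2 and Col15a1, and an activated state by Postn, Tnc, Cthrc1, Timp1 and Adam12. Progenitor cells were 9.79% of mdx5cv and 42.2% of WT quadriceps stroma, and 5.81% of mdx5cv and 31.0% of WT diaphragm stroma. Activated cells were 26.7% of mdx5cv and 0.118% of WT quadriceps stroma, and 27.4% of mdx5cv and 0.550% of WT diaphragm stroma. Since marker genes of these states differ between genotypes, a cell's state is not independent of the genotype.

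Vegfa was highest in the progenitor state of every library, at 71.6 CPM in mdx5cv and 113 CPM in WT quadriceps and 66.6 CPM in mdx5cv and 98.6 CPM in WT diaphragm. Within that state the ratio was 0.631 (0.442 to 0.885) in quadriceps, which was called, and 0.675 (0.517 to 0.868) in diaphragm, which was not. Within the parenchymal state Vegfa was 33.7 CPM in mdx5cv and 61.8 CPM in WT quadriceps, 1.83-fold lower (1.37 to 2.45), and 20.6 CPM in mdx5cv and 61.8 CPM in WT diaphragm, 3.01-fold lower (2.47 to 3.69). Activated cells, found almost only in mdx5cv, had 14.2 CPM in quadriceps and 18.9 CPM in diaphragm. The fall of Vegfa in quadriceps was thus smaller within the progenitor and the parenchymal state than over the whole stroma.

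Pgf behaved otherwise. In the parenchymal state it was 4.92 CPM in mdx5cv and 42.9 CPM in WT quadriceps, 8.71-fold lower (4.86 to 16.8), and 3.77 CPM in mdx5cv and 55.9 CPM in WT diaphragm, 14.8-fold lower (9.55 to 24.4). These ratios were close to those of the whole stroma. In the progenitor state it was 3.25 CPM (2 UMIs) in mdx5cv and 33.7 CPM in WT quadriceps, a ratio of 0.0964 (0.0114 to 0.367), and 22.5 CPM in mdx5cv and 81.6 CPM in WT diaphragm, 3.62-fold lower (2.38 to 5.80). Pgf was called lower in both states and both muscles.

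Vegfd was a progenitor-state ligand in quadriceps, and in that state its genotype ratio was not called. It was 112 CPM in mdx5cv and 134 CPM in WT progenitor-state cells of quadriceps, a ratio of 0.836 (0.626 to 1.10). In diaphragm the same state held 57.4 CPM in mdx5cv and 15.7 CPM in WT, 3.66-fold higher (2.66 to 4.97), opposite to the whole-stroma value. Vegfd was still called lower in the parenchymal state of quadriceps, at 16.2 CPM in mdx5cv and 32.5 CPM in WT, 2.01-fold lower (1.33 to 3.05). Vegfc fell in diaphragm progenitor-state cells, at 12.3 CPM in mdx5cv and 35.1 CPM in WT, 2.85-fold lower (1.62 to 5.57), on 12 and 385 UMIs, and was not called in the other stromal states that gave a ratio. Angpt1 rose in quadriceps progenitor-state cells, at 42.3 CPM in mdx5cv and 16.9 CPM in WT, 2.51-fold higher (1.39 to 4.53), on 26 and 25 UMIs. In the parenchymal state its ratios were 1.03 (0.805 to 1.32) in quadriceps and 1.21 (0.960 to 1.51) in diaphragm.

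Among the receptors, Tek was also high in the progenitor state, at 176 CPM in mdx5cv and 222 CPM in WT quadriceps, where the ratio of 0.791 (0.631 to 0.986) was not called. In diaphragm progenitor-state cells it was 56.4 CPM in mdx5cv and 86.9 CPM in WT, 1.54-fold lower (1.17 to 2.06). In the parenchymal state Tek was 2.31-fold lower (1.72 to 3.11) in quadriceps and 4.32-fold lower (3.25 to 5.86) in diaphragm. Nrp1 was called higher in both states and both muscles, with ratios between 1.64 and 2.05. In the activated state of diaphragm, with 773 mdx5cv and 34 WT cells, Nrp1 was 115 CPM in mdx5cv and 152 CPM in WT, a ratio of 0.756 (0.528 to 1.12).

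**Figure D4:**
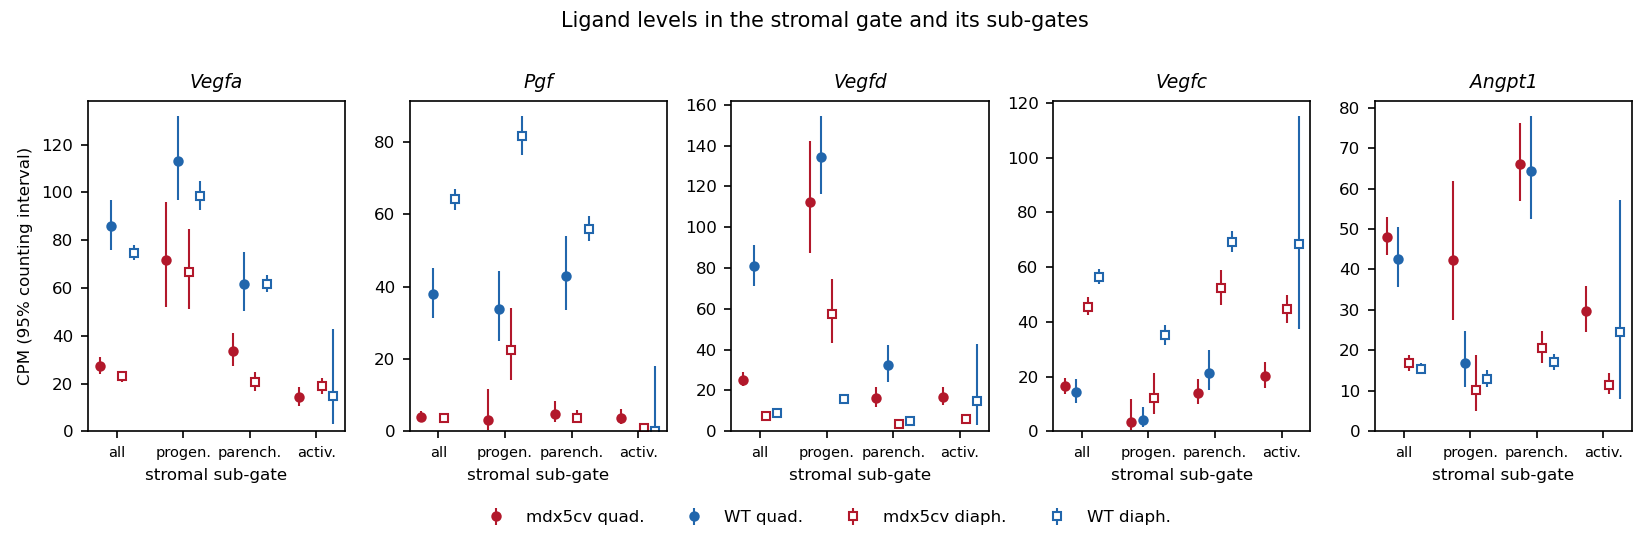
CPM with 95% counting intervals of the 5 ligand genes in all stromal cells and in 3 stromal states (progenitor, parenchymal, activated), for mdx5cv (red) and WT (blue), in quadriceps (filled circles) and diaphragm (open squares). States with fewer than 20 cells are not drawn. Pgf is lower in mdx5cv in every state drawn for both muscles apart from the activated one, and Vegfd in quadriceps overlaps between genotypes in the progenitor state.

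Endothelial receptor levels of quadriceps stayed within 1.5-fold between genotypes. Kdr was 1288 CPM in mdx5cv and 1212 CPM in WT, a ratio of 1.06 (1.0 to 1.13). Flt1 was 1769 CPM in mdx5cv and 1808 CPM in WT, a ratio of 0.978 (0.931 to 1.03). Nrp1 was 1080 CPM in mdx5cv and 938 CPM in WT, a ratio of 1.15 (1.08 to 1.23), and Tek was 315 CPM in mdx5cv and 346 CPM in WT, a ratio of 0.912 (0.809 to 1.02). Flt4 was 84.1 CPM in mdx5cv and 59.9 CPM in WT, a ratio of 1.40 (1.10 to 1.78) that was not called, though it was called higher with cells thinned or weighted equally (log2 ratios of 0.60 and 0.70). The upper bounds leave a difference of up to 1.13-fold for Kdr and 1.78-fold for Flt4. Thinned to 1000 UMIs, 70.1% of mdx5cv and 65.1% of WT quadriceps endothelial cells had a Kdr UMI, and 78.7% and 79.7% had a Flt1 UMI.

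The ligands that endothelial cells themselves carry did differ in quadriceps. Vegfc was 30.5 CPM in mdx5cv and 67.5 CPM in WT, 2.21-fold lower (1.54 to 3.27), on 33 and 329 UMIs. Pgf was 18.5 CPM in mdx5cv and 1.85 CPM in WT, 10.0-fold higher (4.36 to 25.0), but on 20 UMIs in 8 mdx5cv cells, with 9 UMIs in 1 cell, and 9 UMIs in 7 WT cells. Of the 10 members, Pgf alone was called higher, where 11.5% of 16224 genes were, and Vegfc alone was called lower, where 3.93% were.

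In diaphragm the endothelial gate held few WT cells and was of another make-up. Lymphatic cells (marked by Prox1, Mmrn1, Ccl21a, Pdpn and Reln) were 5.07% of mdx5cv and 37.3% of WT diaphragm endothelial cells, 18 and 28 cells, and capillary cells were 78.6% and 49.3%, 279 and 37 cells. Over the whole gate Flt1 was 1702 CPM in mdx5cv and 756 CPM in WT, 2.25-fold higher (1.90 to 2.68), and Nrp1 was 1003 CPM in mdx5cv and 487 CPM in WT, 2.06-fold higher (1.67 to 2.57). Flt4 was 161 CPM in mdx5cv and 523 CPM in WT, 3.25-fold lower (2.51 to 4.19). Kdr was 1276 CPM in mdx5cv and 896 CPM in WT, a ratio of 1.42 (1.21 to 1.68), and Tek was 299 CPM in mdx5cv and 249 CPM in WT, a ratio of 1.20 (0.885 to 1.67). Neither of these last ratios was called. Of the members tested, 2 were called higher, where 4.0% of 13610 genes were, and 1 lower, where 4.25% were.

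Within capillary cells of diaphragm the 3 calls were lost. Flt1 was 1751 CPM in mdx5cv and 1427 CPM in WT, a ratio of 1.23 (1.01 to 1.5). Nrp1 was 1184 CPM in mdx5cv and 1005 CPM in WT, a ratio of 1.18 (0.938 to 1.5), and Kdr was 1479 CPM in mdx5cv and 1266 CPM in WT, a ratio of 1.17 (0.954 to 1.45). Flt4 was 75.1 CPM in mdx5cv and 37.2 CPM (3 UMIs) in WT, a ratio of 2.02 (0.657 to 10.1). Vegfc was 17.1 CPM in mdx5cv and 62.0 CPM in WT capillary cells, 3.62-fold lower (1.01 to 10.8), on 13 and 5 UMIs. In quadriceps capillary cells it was 15.5 CPM in mdx5cv and 38.9 CPM in WT, 2.51-fold lower (1.43 to 4.82), so Vegfc was called lower in capillary cells of both muscles.

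The vessel types differed in receptor levels in a way the libraries shared. Flt4 was highest in lymphatic cells, at 1101 CPM in mdx5cv quadriceps (6 cells), 961 CPM in WT quadriceps (14 cells), 1399 CPM in mdx5cv diaphragm (18 cells) and 1140 CPM in WT diaphragm (28 cells). Capillary Flt4 ran from 37.2 to 77.5 CPM over the 4 libraries. Flt1 was at 0, 206, 45.1 and 0 CPM in lymphatic cells of these libraries, and Nrp1 at 0, 68.6, 0 and 0 CPM, whereas Kdr held 642, 824, 857 and 670 CPM. Kdr was higher in capillary than in arterial and venous cells in every library. In diaphragm this rests on 28 arterial and 11 venous cells in mdx5cv, and 5 and 2 in WT. Vegfc was highest in arterial cells, at 142 CPM in mdx5cv and 319 CPM in WT quadriceps, 2.26-fold lower (1.13 to 5.11), and at 415 CPM in mdx5cv (28 cells) and 492 CPM in WT (5 cells, 6 UMIs) diaphragm. Arterial Kdr of quadriceps was 723 CPM in mdx5cv and 422 CPM in WT, 1.71-fold higher (1.19 to 2.44), on 26 and 117 cells. All 5 Pgf UMIs of WT diaphragm endothelium lay in lymphatic cells, and 21 of the 27 of mdx5cv diaphragm lay in capillary cells.

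**Figure D5:**
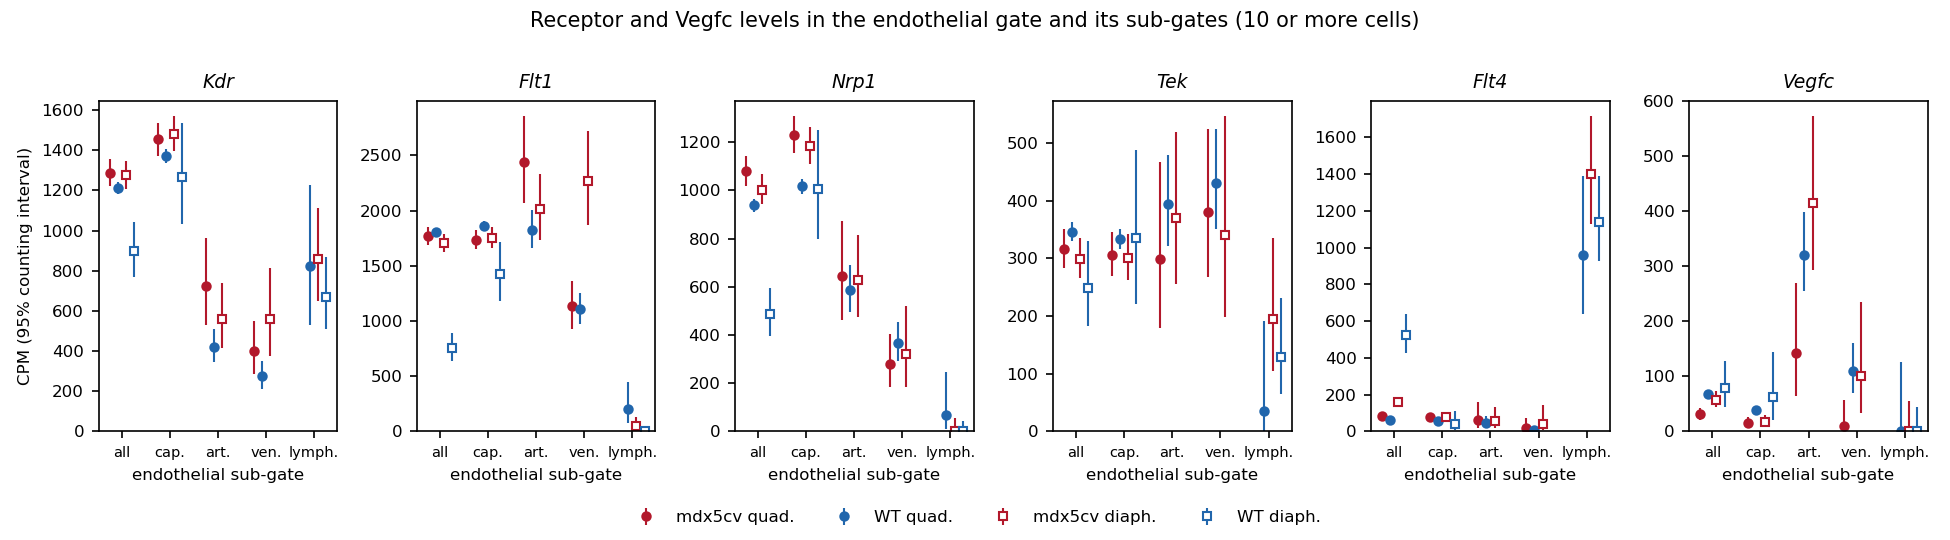
CPM with 95% counting intervals of 5 receptor genes and Vegfc in all endothelial cells and in capillary, arterial, venous and lymphatic cells with 10 or more cells, for mdx5cv (red) and WT (blue), in quadriceps (filled circles) and diaphragm (open squares). Over all cells WT diaphragm lies low for Kdr, Flt1 and Nrp1 and high for Flt4, and its capillary values lie near those of the other libraries.

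Nrp1 was the receptor most spread outside vessels. Macrophages held 48.1% of Nrp1 UMIs in mdx5cv quadriceps and 1.82% in WT quadriceps, and 30.9% in mdx5cv diaphragm and 3.56% in WT diaphragm. Their level was 205 CPM in mdx5cv and 128 CPM in WT quadriceps, 1.61-fold higher (1.33 to 1.97), and 190 CPM in mdx5cv and 87.9 CPM in WT diaphragm, 2.16-fold higher (1.70 to 2.80). Thinned to equal depth, 18.3% of mdx5cv and 12.2% of WT quadriceps macrophages had an Nrp1 UMI, and 17.3% of mdx5cv and 7.74% of WT diaphragm macrophages. The quadriceps call was lost in 4 alternatives, with log2 ratios of 0.40 without the top 5% of UMIs, 0.49 when thinned, 0.54 with cells weighted equally and 0.55 with mixed barcodes added, against 0.69. Resident macrophages (Lyve1, Timd4, Cd163, Folr2) were 1.58-fold (1.17 to 2.19) and 1.82-fold (1.28 to 2.61) higher in quadriceps and diaphragm. Lipid-associated macrophages (Spp1, Gpnmb, Fabp5, Trem2) had 201 CPM in mdx5cv and 88.3 CPM in WT quadriceps, 2.27-fold higher (1.53 to 3.55). In diaphragm they had 187 CPM in mdx5cv and 36.9 CPM in WT, 5.07-fold higher (2.32 to 13.8), on 6 WT UMIs.

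Nrp1 was also called higher in some other mdx5cv gates. Muscle stem cells had 69.8 CPM in mdx5cv and 8.75 CPM in WT quadriceps, 7.97-fold higher (3.32 to 25.0), and 63.4 CPM in mdx5cv and 12.7 CPM in WT diaphragm, 5.0-fold higher (1.66 to 24.7), on 5 and 3 WT UMIs. Thinned to 1000 UMIs a cell, the diaphragm log2 ratio was 1.12 in place of 2.32 and was not called. T, NK and innate lymphoid cells of diaphragm had 87.2 CPM in mdx5cv and 4.79 CPM in WT, 18.2-fold higher (5.99 to 90.1), also on 3 WT UMIs. Nrp1 is a known marker of regulatory T cells, and no gate here separated T cells by kind. Quadriceps tenocytes had 138 CPM in mdx5cv and 46.9 CPM in WT, 2.94-fold higher (1.59 to 5.93). B cells of diaphragm, which served as cells of low Nrp1, held 3.93 CPM in mdx5cv and 0 CPM in WT.

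In macrophages Vegfa, Kdr, Flt1, Flt4 and Tek were at low counts. In quadriceps 2 members were called higher, Nrp1 and Vegfa, where 9.10% of 17921 genes were, and 4 lower, Kdr, Flt1, Flt4 and Tek, where 7.58% were. The Vegfa call rests on 141 UMIs in mdx5cv against 0 in WT, with a lower limit of 1.20 for the ratio. With the WT count set at 3 UMIs the Vegfa ratio was 1.499, just under the threshold. No member was called higher with the top 5% of UMIs left out, cells thinned or cells weighted equally, so both calls were lost there. The endothelial markers summed to 11.5 CPM in mdx5cv and 95.7 CPM in WT quadriceps macrophages, and WT held 23 Kdr, 12 Flt1, 4 Flt4 and 6 Tek UMIs in 213 cells. With free RNA subtracted, the log2 ratio of Flt1 was 0.036 in place of -1.91, so that its direction was lost. The calls of Kdr (-2.18 in place of -2.36), Flt4 (-5.58 in place of -4.97) and Tek (-4.80 in place of -4.23) were kept. In diaphragm macrophages 1 member was called higher, Nrp1, where 10.0% of 16419 genes were, and 1 lower, Vegfa, where 6.18% were. That Vegfa value was 7.36 CPM in mdx5cv and 18.4 CPM in WT, 2.50-fold lower (1.30 to 4.44), on 78 and 14 UMIs, and its log2 ratio changed sign when cells were thinned (0.59 in place of -1.32).

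Vegfa was also called lower in mdx5cv muscle stem cells. Their Vegfa level was 13.8 CPM in mdx5cv and 75.2 CPM in WT quadriceps, 5.44-fold lower (3.18 to 9.55), and 5.64 CPM in mdx5cv and 33.8 CPM in WT diaphragm, 6.0-fold lower (1.96 to 18.3), on 8 UMIs each. Median depth in diaphragm was 5718 UMIs in mdx5cv and 2249 UMIs in WT muscle stem cells, and with cells thinned the log2 ratio was -0.99 in place of -2.58 and was not called. Tek in quadriceps muscle stem cells was 13.2 CPM in mdx5cv and 40.2 CPM in WT, 3.05-fold lower (1.61 to 5.79). This call was lost with cells thinned (log2 ratio -0.46) or weighted equally (-0.52, against -1.61). The 8 endothelial markers summed to 10.7 CPM in mdx5cv and 63.0 CPM in WT quadriceps muscle stem cells, and their part in the Tek ratio was tested by subtracting free RNA alone, which gave -1.48. Angpt1 was 15.7 CPM in mdx5cv and 12.2 CPM in WT quadriceps, with a ratio interval of 0.539 to 3.51.

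Other genes of these pathways were read from 3 lists: 13 partners of the family, 13 tip cell and VEGF-response genes and 11 hypoxia targets. In quadriceps stroma 3 partners were called higher and 5 lower, where 13.1% and 11.4% of all genes tested were, with a list median of 0.14 on the log2 scale against 0.06. In diaphragm stroma 4 were called higher and 2 lower, where 10.9% and 8.83% of all genes were, with a median of 0.05 against 0.07. The medians over all genes take those with at least 10 UMIs. Ccbe1, which activates Vegfc for lymphatic growth, was 76.4 CPM in mdx5cv and 19.3 CPM in WT quadriceps, 3.97-fold higher (3.05 to 5.25), and 136 CPM in mdx5cv and 52.8 CPM in WT diaphragm, 2.58-fold higher (2.41 to 2.75). Nrp2 and Plxnd1, a co-receptor and a semaphorin receptor, were also called higher in both muscles, with ratios of 1.67 to 2.67. The semaphorins Sema3a and Sema3c, which bind neuropilins, were called lower in both, Sema3c by 4.69-fold and 5.17-fold. The quadriceps call of Sema3a rested on 10 UMIs in mdx5cv and 11 UMIs in WT. Sema3c is also one of the markers that define the progenitor state.

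Hypoxia targets did not move together in stroma, with 3 of 11 called in each direction in quadriceps (median -0.25). In diaphragm 0 were called higher and 3 lower (median -0.13). The shares and medians of all genes are those just given. Those lower in both muscles were the vasodilator peptide gene Adm, Ndrg1 and the oxygen sensor Egln3. The quadriceps call of Egln3 rested on 0 UMIs in mdx5cv and 5 UMIs in WT. Adm was 70.0 CPM in mdx5cv and 128 CPM in WT quadriceps, 1.83-fold lower (1.61 to 2.08), and 40.5 CPM in mdx5cv and 133 CPM in WT diaphragm, 3.30-fold lower (3.04 to 3.59). Glucose transporter Slc2a1 and lactate dehydrogenase Ldha were among those called higher in quadriceps. Of the 13 tip cell and VEGF-response genes, quadriceps stroma had 2 called higher and 3 lower, and diaphragm stroma had 3 in each direction.

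In quadriceps endothelial cells 6 of 13 tip cell and VEGF-response genes were called higher and 3 lower, where 11.5% and 3.93% of all genes were, with a median log2 ratio of 0.28 against 0.17 over genes with at least 10 UMIs. In diaphragm endothelial cells 4 were called higher and 1 lower, where 4.0% and 4.25% of all genes were, with a median of 0.41 against -0.03. Of all genes with at least 10 UMIs, 14.7% were called higher and 5.49% lower in quadriceps endothelium, and 6.06% and 5.59% in diaphragm endothelium. The list genes called higher in both muscles were those of apelin and its receptor. Aplnr was 553 CPM in mdx5cv and 191 CPM in WT quadriceps, 2.89-fold higher (2.60 to 3.20), and 285 CPM in mdx5cv and 31.1 CPM in WT diaphragm, 9.16-fold higher (4.16 to 25.2). Apln was 23.1 CPM in mdx5cv and 5.13 CPM in WT quadriceps, 4.51-fold higher (2.48 to 8.18), and had 49 UMIs in mdx5cv and 0 in WT diaphragm. The tip cell gene Esm1 was called lower in quadriceps and higher in diaphragm. In WT diaphragm Aplnr rested on 6 UMIs and Esm1 on 0. The diaphragm values take the whole endothelial gate, where lymphatic cells were 5.07% in mdx5cv and 37.3% in WT. These genes were not compared within capillary cells. Nr4a1, an early gene that VEGF and stress both induce, was called lower in both muscles in endothelial and in stromal cells. Among hypoxia targets, quadriceps endothelium had 0 called higher and 1 lower, and diaphragm endothelium had 1 called in each direction.

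In macrophages Slc2a1, Ndrg1 and the chemokine receptor Cxcr4 were called higher in both muscles, and Egr3 and Kcne3 lower. Of 11 hypoxia targets, quadriceps macrophages had 2 called higher and 0 lower, where 9.10% and 7.58% of all genes were. Diaphragm macrophages had 3 called higher and 1 lower, where 10.0% and 6.18% of all genes were. Ndrg1 was thus called lower in stroma and higher in macrophages of the same muscles. The difference between these cell types was not tested.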

How the data were processed

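Mononuclear cells of quadriceps and diaphragm were cryopreserved and profiled with 10x Genomics 3' v3.1 chemistry, per the labels' protocols. The deposited matrices hold 1 UMI count per gene and barcode with no cell filter applied. Per the submitters' processing notes, Cell Ranger 5.0.0 and mm10 gave the counts. The file header instead names Cell Ranger 4, and which gene annotation the authors counted against was not found in the labels or headers. Libraries held 62780685 (mdx5cv quadriceps), 18837891 (WT quadriceps), 49612759 (mdx5cv diaphragm) and 40226833 (WT diaphragm) UMIs.

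Python 3.11.15, numpy 2.4.6, scipy 1.17.1, pandas 2.3.3 and matplotlib 3.10.9 were used. Of the gene identifiers, 32235 of 32285 (99.8%) were found in GENCODE M21. A barcode with at least 3 markers entered the gate with the largest share of its list detected, if no other lineage reached over 50% of that share. Otherwise it was mixed or, with fewer markers, ungated, and both were left out. States within a gate were set by the sub-list with the largest share detected. Any detected marker was enough if its sub-list led alone, and ties were given no state. Median depth in mdx5cv quadriceps stroma was 9957 UMIs in the activated and 4268.5 UMIs in the parenchymal state. No doublet caller was run. UMIs were summed per gate and library. Intervals are exact Poisson (levels), exact binomial (shares of cells), exact conditional (ratios) and delta-method (differences of log2 ratios). A count of 0 was set at 3 to give a ratio, which is not a limit of the interval. Free RNA was taken from barcodes with 10 to 100 UMIs, and its share of a gate's UMIs was estimated from markers of other gates. Promoters come from RefSeq, which had a window for 9 of the 10 members. The dystrophin mutation is not checked by 3' tags of Dmd. The code was tested on simulated data.

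All 10 members are given, whatever their values. A list gene was named if its call had the same sign in quadriceps and diaphragm of a gate, and others (Slc2a1 and Ldha in stroma, Esm1, neutrophil Vegfa, the UMIs in 1 cell) were chosen after their values were seen. The members, lists and gates were chosen with earlier results of these data known. Alternatives were a minimum of 2000 UMIs, a mitochondrial limit of 5%, 1 marker fewer or more, mixed barcodes given to their leading gate, the top 5% of UMIs left out, thinning to 1000 UMIs, cells weighted equally, free RNA subtracted, a threshold of 2-fold, a minimum of 10 UMIs and the sub-gates.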

Additional observations from a re-analysis of the deposited data

How the results depend on the processing

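Each value has 1 library behind it, so genotype cannot be told apart from animal, dissociation, thawing or sequencing run. No paired analysis was possible because each group holds 1 library. Gates rest on marker detection, and WT quadriceps cells had the lowest depth. Of 673 recomputed log2 ratios of members (58 ratios), 610 kept their direction and their call or lack of one, 24 changed sign but were called neither time, 16 lost the call, 14 gained one and 9 changed sign with a call on at least one side. Of 148 recomputed counts 22 moved, and of 1320 levels 246 moved beyond their counting interval. The mixed-barcode and capillary alternatives were chosen after seeing the data. The activated state of quadriceps gave no value, with 1 WT cell. The causes of these changes were not tested. Stromal Pgf had log2 ratios between -4.04 and -2.47 for quadriceps, and between -4.43 and -1.86 for diaphragm. Pgf was called wherever a log2 ratio was taken. Activated cells of diaphragm held 6 Pgf UMIs in mdx5cv and 0 in WT, so no log2 ratio was taken there and Pgf was not called. Stromal Vegfa had log2 ratios between -1.84 and -0.66 (quadriceps) and between -1.79 and 0.36 (diaphragm). In diaphragm Vegfa lost its call in progenitor-state cells (-0.57) and changed sign in activated cells (0.36). Also in activated cells of diaphragm, Nrp1 was -0.40 (1.14 over all stroma) and Tek 0.014 (-2.55), and Vegfd in progenitor-state cells was 1.87 (-0.27). In quadriceps progenitor-state cells the calls of Kdr (-0.95), Tek (-0.34) and Vegfd (-0.26) were lost. Flt1 in quadriceps macrophages was 0.036 with a 5% mitochondrial limit and 0.036 with free RNA subtracted (-1.91 otherwise). Vegfa in diaphragm macrophages was 0.59 when cells were thinned (-1.32 otherwise), Pgf in diaphragm endothelium was -1.60 with cells weighted equally (0.03), and Flt4 was 1.01 in its capillary cells (-1.70). The 5% limit left 161 mdx5cv quadriceps, 808 WT quadriceps, 106 mdx5cv diaphragm and 21 WT diaphragm endothelial cells, the last with 19 lymphatic cells, and gave diaphragm endothelial log2 ratios of 5.20 for Flt1 and 4.25 for Nrp1 (1.17 and 1.04 otherwise, 0.30 and 0.24 in capillary cells). Members called higher in diaphragm endothelium were 0 in capillary cells and not 2. In quadriceps endothelium they were 2 and not 1 when cells were thinned or weighted equally or mixed barcodes were given to their leading gate. In diaphragm macrophages they were 2 and not 1 with the top 5% of UMIs left out, cells weighted equally or mixed barcodes added. In quadriceps macrophages they were 1 and not 2 at a 2-fold threshold, the 5% limit or with mixed barcodes added, and 0 with the top 5% left out, thinned or weighted equally. In diaphragm stroma they were 2 and not 1 with the 5% limit, the top 5% left out, cells weighted equally, free RNA subtracted or mixed barcodes added. Members called lower were 2 and not 1 in diaphragm endothelium with cells weighted equally. In diaphragm macrophages they were 0 when thinned and 2 with free RNA subtracted, and not 1, and in quadriceps macrophages 1 and not 4 when thinned.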

Other observations

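The genes with profiles most like each member were ranked by Pearson's r of log2(CPM + 1) over 31 profiles, each the summed cells of 1 gate in 1 library with at least 50 cells. These profiles share libraries and depth, so r is a description and has no p. Kdr was closest to Kank3 (r = 0.951), Flt1 to Gpihbp1 (r = 0.938), which carries lipoprotein lipase on capillary endothelium, and Tek to Ramp2 (r = 0.915), a co-receptor for adrenomedullin. Flt4 was closest to Klhl4 (r = 0.960), ahead of the lymphatic chemokine gene Ccl21a, and Nrp1 to the semaphorin receptor gene Plxnd1 (r = 0.835). Among the ligands, Angpt1 was closest to Pknox2 (r = 0.905), Vegfd to Lvrn (r = 0.893), Vegfc to Galnt15 (r = 0.871) and Pgf to Pir (r = 0.817). Vegfa had the least similar leading gene, Zfp503 (r = 0.756).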
